A study of Mus musculus with 6 samples.

Results

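Urea cycle and periportal amino acid enzymes were followed in whole-liver RNA-seq of 6 Mettl14f/f mice, as 10 genes named by symbol: Cps1, Ass1, Asl, Arg1, Otc, Nags, Gls2, Hal, Sdsl and Slc25a15. All 10 were matched by symbol in the gene table of 21362 genes and in the transcript files, which held counts for 18453 genes, and all 10 were among the 13431 genes with enough counts to be tested. All 6 mice were males that carried floxed Mettl14 alleles and ate a HFD. In 3 of them AAV8-TBG-GFP served as the control (genotype label WT), and the other 3 received AAV8-TBG-Cre (genotype label METTL14 KO). HFD started at 8 weeks of age, the vector was given by tail vein after 10 weeks of HFD, and liver RNA was taken 8 weeks after injection. The TBG promoter is active in hepatocytes, so other liver cells keep their floxed alleles in this model. The sources used here do not say which share of hepatocytes was transduced.

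The urea cycle turns ammonia, which is toxic, into urea for excretion, and the liver is the organ that runs the complete cycle. Its opening steps lie in hepatocyte mitochondria and the rest in the cytosol, so ornithine and citrulline must cross the inner mitochondrial membrane. Periportal hepatocytes, which meet portal blood before the rest of the lobule, are rich in urea cycle enzymes and in enzymes that strip nitrogen from amino acids. Pericentral hepatocytes capture the remaining ammonia with glutamine synthetase. Transcription of the urea cycle genes is known to follow protein intake, glucagon and glucocorticoids.

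Libraries held between 20356440 and 21010508 counts each. Counts of the targeted gene, Mettl14, were 124, 126 and 111 with GFP and 104, 131 and 101 in libraries labelled for Cre. After TMM scaling these were 6.30, 6.43 and 5.81 CPM against 4.96, 5.38 and 4.86 CPM, so every Cre liver was below every GFP liver. Its log2 fold change was -0.29 (SE 0.15), with an edgeR quasi-likelihood, Benjamini-Hochberg adjusted p of 0.337, so the libraries are named here by their labels and directions rest on those labels. Whole-transcript counts do not show whether the floxed part was missing. The paper reported less METTL14 protein and lower total RNA m6A methylation in livers of HFD males given AAV8-TBG-Cre. Those livers were taken earlier after injection. Hepatocyte markers (Alb and 6 others tested) summed to between 99007 and 117620 CPM in the GFP livers and between 78927 and 100810 CPM in the Cre livers. The kidney marker Slc34a1 had 0 to 2 counts per library. Library names came in a 2-digit form (GFP replicates 1 and 2, Cre replicate 1) and a 4-digit form (GFP replicate 3, Cre replicates 2 and 3), which the labels do not explain. Ratios within each form are therefore given beside the pooled ones, with GFP replicates 1 and 2 against Cre replicate 1 for 2-digit names and GFP replicate 3 against Cre replicates 2 and 3 for 4-digit names.

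Promoter windows, 250 bases before to 50 bases after a start site, were at hand from RefSeq (GRCm38.p6) for 5 of the 10 genes: Ass1, Slc25a15, Otc, Hal and Nags. Cps1, Asl, Arg1, Gls2 and Sdsl had no entry. Ass1, the most abundant of the 10 transcripts, Slc25a15, which passed the unadjusted threshold below, and Hal, whose vector difference pointed in opposite directions in the 2 name forms, are shown 5′ to 3′. Capitals mark every match to one of 5 searched motifs: CACGTG (the palindromic E-box), TGACGTCA (the full cAMP response element), TGACG (its shorter form, contained in it), TTGCNNAA (a C/EBP-type site) and TATAAA (the TATA box).
Ass1, chr2:31470020-31470319, plus strand: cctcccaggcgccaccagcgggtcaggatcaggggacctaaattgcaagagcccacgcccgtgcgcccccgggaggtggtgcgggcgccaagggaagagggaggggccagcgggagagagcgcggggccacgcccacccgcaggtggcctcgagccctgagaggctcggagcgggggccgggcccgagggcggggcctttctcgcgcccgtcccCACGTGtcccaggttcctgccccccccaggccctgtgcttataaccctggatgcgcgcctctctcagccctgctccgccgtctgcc
Slc25a15, chr8:22398228-22398527, minus strand: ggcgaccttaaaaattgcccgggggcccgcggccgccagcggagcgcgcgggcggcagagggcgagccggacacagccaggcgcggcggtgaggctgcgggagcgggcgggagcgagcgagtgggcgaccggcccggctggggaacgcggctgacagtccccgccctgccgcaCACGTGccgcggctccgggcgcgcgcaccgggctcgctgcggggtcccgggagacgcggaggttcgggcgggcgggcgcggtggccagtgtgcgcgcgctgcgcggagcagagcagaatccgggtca
Hal, chr10:93488518-93488817, plus strand: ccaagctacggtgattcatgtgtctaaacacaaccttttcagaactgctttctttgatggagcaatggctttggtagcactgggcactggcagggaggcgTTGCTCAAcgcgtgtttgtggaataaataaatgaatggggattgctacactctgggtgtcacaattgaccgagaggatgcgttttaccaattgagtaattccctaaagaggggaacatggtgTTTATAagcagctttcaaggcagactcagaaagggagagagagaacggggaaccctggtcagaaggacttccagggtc
Ass1 and Slc25a15 held CACGTG, at -36 and -77 from the start site. Hal held TTGCNNAA at -150 and a reverse-strand TATAAA, read as TTTATA, at -28. The Nags window (chr11:102145263-102145562, plus strand) held TGACG on the reverse strand at 32. No match lay in the Otc window (chrX:10252055-10252354, plus strand) or in that of another Slc25a15 start (chr8:22398572-22398871, minus strand). Of 32851 RefSeq windows of the same length, searched on both strands, 7.15% held CACGTG, 20.8% TGACG, 1.79% TGACGTCA, 10.8% TTGCNNAA and 13.6% TATAAA. These matches describe letters in a window and were not tested as binding sites.

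Among the 10 genes, Cps1 and Slc25a15 were higher in the Cre livers at the unadjusted threshold (p under 0.05 and at least 1.2-fold), and none of the 10 passed it in the other direction. Over all tested genes 12% were higher and 8.41% lower by that rule. No member reached an edgeR adjusted p under 0.05, against 0.931% of all genes tested. DESeq2, which called more genes (1157 of 18416), called 1 of the 10, Cps1. In whole-liver RNA, a change in hepatocyte number and a change in RNA per hepatocyte cannot be told apart. Each gene is given below as CPM, the counts scaled to a common library size with TMM, in GFP replicates 1, 2 and 3 and then in Cre replicates 1, 2 and 3.

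**Figure D1:**
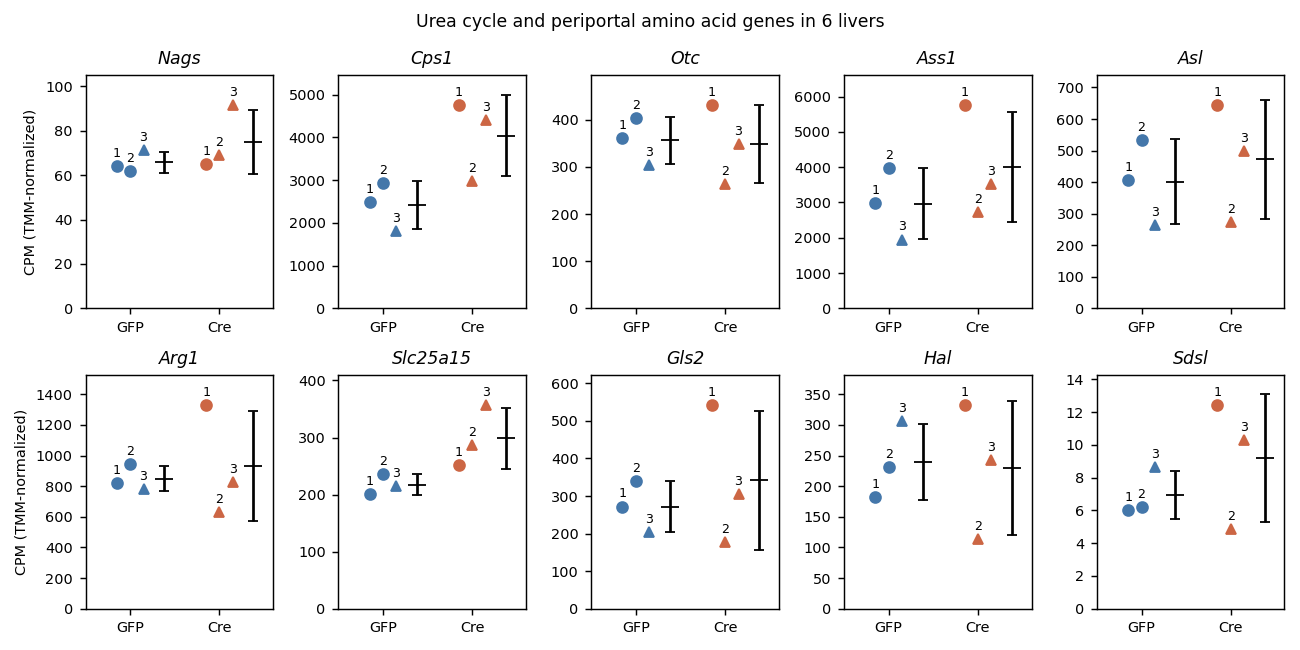
CPM of the 10 genes in each liver (linear axes from 0), with GFP livers in blue and Cre livers in orange, circles for 2-digit and triangles for 4-digit library names, and the replicate number above each point. Bars give mean ± SD (n = 3). Cre replicate 1 is the highest library in 8 of the 10 panels, and only in the Cps1 and Slc25a15 panels do the groups not overlap.

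Mitochondrial entry of ammonia into the cycle starts with Nags and Cps1. Nags (NCBI gene 217214, chr11:102145513-102149528) makes N-acetylglutamate, the obligatory activator of the next enzyme. It was measured at 64.1, 61.7 and 71.1 CPM in the GFP livers and 64.8, 68.9 and 91.5 CPM in the Cre livers. The groups overlapped, with Cre replicate 3 above all other libraries and Cre replicates 1 and 2 inside the GFP range. Means were 65.7 ± 4.89 and 75.1 ± 14.4 CPM (SD, n = 3 each), a log2 fold change of 0.19 (SE 0.15, edgeR adjusted p = 0.510). Within the 2-digit and 4-digit forms the log2 ratio was 0.041 and 0.17. On the FPKM scale, which carries no TMM correction, Nags was 29.1, 27.6 and 30.5 in the GFP livers and 31.1, 38.2 and 42.5 in the Cre livers, without overlap.

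Cps1 (NCBI gene 227231, chr1:67122426-67231267) encodes carbamoyl phosphate synthetase 1, the rate-controlling enzyme that commits ammonia to urea. It was found at 2497, 2943 and 1815 CPM in the GFP livers and 4754, 2974 and 4398 CPM in the Cre livers. Every Cre liver lay above every GFP liver, but Cre replicate 2 did so by a narrow margin over GFP replicate 2. The means were 2418 ± 568 and 4042 ± 942 CPM (SD, n = 3 each), a ratio of 1.67. Its log2 fold change of 0.74 (SE 0.27, 95% interval 0.12 to 1.36) had an edgeR adjusted p of 0.177 and a DESeq2 adjusted p of 0.041. Exact permutation of the livers gave a two-sided p of 0.1, the smallest that 3 against 3 allows. The difference had the same sign in both name forms, 0.81 on the log2 scale in the 2-digit and 1.02 in the 4-digit libraries. Without GFP replicate 1, GFP replicate 3, Cre replicate 1 or Cre replicate 3, its unadjusted edgeR p rose to 0.0688, 0.0895, 0.0662 and 0.0663, and the log2 fold change stayed between 0.56 and 0.92 over all 6 omissions.

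Otc (NCBI gene 18416, chrX:10252230-10321024) joins carbamoyl phosphate to ornithine to form citrulline, still inside the mitochondrion. Its levels were 362, 403 and 303 CPM in the GFP livers and 431, 265 and 349 CPM in the Cre livers. The Cre livers held both the highest and the lowest value, so the groups overlapped completely. Means of 356 ± 50.2 and 348 ± 83.2 CPM (SD, n = 3 each) gave a log2 fold change of -0.034 (SE 0.20, 95% interval -0.51 to 0.44, edgeR adjusted p = 0.944). The sign changed to 0.12 with library totals in place of TMM, which moved the median of all genes to 0.164. By form the log2 ratio was 0.17 and 0.015.

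Slc25a15 (NCBI gene 18408, chr8:22375550-22398621) is ORNT1, the carrier that exchanges ornithine for citrulline across the inner mitochondrial membrane and so links the mitochondrial and the cytosolic steps. Its values were 201, 236 and 216 CPM in the GFP livers and 251, 287 and 356 CPM in the Cre livers. All Cre livers were above all GFP livers, with Cre replicate 3 the highest and Cre replicate 1 the closest to the controls. The mean went from 218 ± 18.0 to 298 ± 53.4 CPM (SD, n = 3 each), a ratio of 1.37. The log2 fold change was 0.45 (SE 0.16, 95% interval 0.086 to 0.82), with an edgeR adjusted p of 0.167 and a two-sided p of 0.1 by exact permutation. Within forms the log2 ratio was 0.20 for 2-digit and 0.58 for 4-digit names. Leaving out GFP replicate 1, GFP replicate 3 or Cre replicate 3 took its unadjusted edgeR p to 0.0887, 0.0604 and 0.0722. Non-overlapping groups with higher Cre values were thus seen for 2 of the 10 genes, while 14% of all genes tested showed them.

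The cytosolic steps behaved differently from liver to liver. Ass1 (NCBI gene 11898, chr2:31470270-31520670), argininosuccinate synthetase, condenses citrulline with aspartate, which brings in the other nitrogen of urea. It was measured at 2984, 3967 and 1952 CPM in the GFP livers and 5758, 2744 and 3535 CPM in the Cre livers. Cre replicate 1 exceeded all other libraries, whereas Cre replicates 2 and 3 lay inside the GFP range. Means were 2967 ± 1008 and 4012 ± 1563 CPM (SD, n = 3 each), a log2 fold change of 0.44 (SE 0.35, 95% interval -0.39 to 1.26, edgeR adjusted p = 0.532). Both forms gave a positive log2 ratio, 0.73 and 0.69, and with the form as a covariate the estimate was 0.71 (edgeR adjusted p = 0.139). Its deposited counts were not whole numbers, unlike those of most of the set. An expected count takes this form where fragments also match another transcript, so its level carries that uncertainty.

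Asl (NCBI gene 109900, chr5:130011258-130024381), argininosuccinate lyase, splits argininosuccinate into arginine and fumarate. It stood at 408, 535 and 263 CPM in the GFP livers and 644, 273 and 499 CPM in the Cre livers. The lowest libraries of both groups, GFP replicate 3 and Cre replicate 2, were nearly level. The means of 402 ± 136 and 472 ± 187 CPM (SD, n = 3 each) differed by a log2 fold change of 0.23 (SE 0.35, edgeR adjusted p = 0.754), which became -0.065 without Cre replicate 1. Its log2 ratio was 0.45 in the 2-digit and 0.55 in the 4-digit libraries. Arg1 (NCBI gene 11846, chr10:24915207-24927470), liver arginase, releases urea and returns ornithine to the cycle. Its values were 823, 942 and 784 CPM in the GFP livers and 1328, 633 and 829 CPM in the Cre livers. Cre replicate 1 was the highest and Cre replicate 2 the lowest of the 6 libraries. The means of 850 ± 82.3 and 930 ± 358 CPM (SD, n = 3 each) gave a log2 fold change of 0.13 (SE 0.27, edgeR adjusted p = 0.821), or -0.22 without Cre replicate 1. The sign differed between forms, with log2 ratios of 0.59 and -0.10 (edgeR interaction, adjusted p = 0.875).

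**Figure D2:**
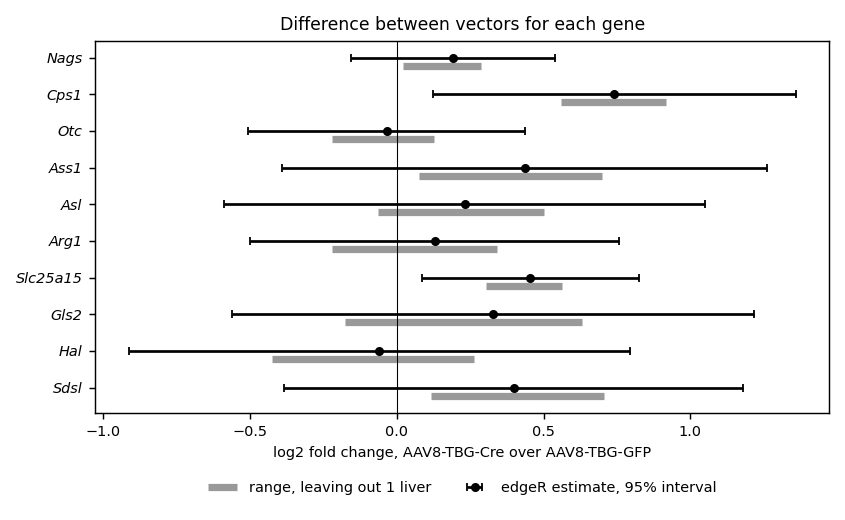
Log2 fold change of each gene, Cre over GFP (x axis), with the edgeR estimate and its 95% interval in black and the range of estimates when 1 of the 6 livers was left out in grey. The intervals of Cps1 and Slc25a15 lie above 0 and those of the other 8 genes include 0. The grey ranges of Otc, Asl, Arg1, Gls2 and Hal cross 0.

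Of the amino acid enzymes that feed nitrogen into the cycle, Gls2 (NCBI gene 216456, chr10:128194635-128210004) is the liver-type glutaminase, which frees ammonia from glutamine next to Cps1. The gene had 3 transcripts in the files, of which 1 took nearly all counts in every library. Gls2 was at 272, 341 and 203 CPM in the GFP livers and 541, 179 and 305 CPM in the Cre livers. Cre replicate 1 was far above the other libraries and Cre replicate 2 below all of them. Means of 272 ± 68.9 and 342 ± 184 CPM (SD, n = 3 each) gave a log2 fold change of 0.33 (SE 0.38, edgeR adjusted p = 0.673), which turned to -0.18 without Cre replicate 1. The log2 ratio was 0.82 for 2-digit and 0.25 for 4-digit names.

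Hal (NCBI gene 15109, chr10:93488768-93516761), histidine ammonia-lyase, opens the breakdown of histidine and releases free ammonia. Its levels were 182, 231 and 306 CPM in the GFP livers and 332, 114 and 243 CPM in the Cre livers. Cre replicate 1 was again the highest and Cre replicate 2 the lowest. The means were 239 ± 62.5 and 230 ± 109 CPM (SD, n = 3 each), with a log2 fold change of -0.059 (SE 0.37, edgeR adjusted p = 0.946). Within forms the log2 ratio was 0.69 for 2-digit and -0.77 for 4-digit names, and the edgeR interaction of vector and form was -1.46 (adjusted p = 0.830).

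Sdsl (NCBI gene 257635, chr5:120458193-120472825), a serine dehydratase-like enzyme, was the least abundant of the set, with 118 to 260 counts per library. It was at 6.00, 6.22 and 8.64 CPM in the GFP livers and 12.4, 4.85 and 10.3 CPM in the Cre livers. Cre replicates 1 and 3 were above all GFP livers, while Cre replicate 2 was below them. The means of 6.95 ± 1.46 and 9.18 ± 3.90 CPM (SD, n = 3 each) gave a log2 fold change of 0.40 (SE 0.34, 95% interval -0.38 to 1.18, edgeR adjusted p = 0.547). Its ratio also differed in sign between forms, 1.02 and -0.19 on the log2 scale.

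As a list, 8 of the 10 genes had a positive log2 fold change, while 49% of all genes tested did. The exceptions, Otc and Hal, lay near 0 and turned positive with library totals or on the FPKM scale, where all genes shifted upward. With library totals they were 0.12 and 0.083, below the median of all genes (0.164). In limma on log2(FPKM + 1) they were 0.116 and 0.012, against 0.112 for all genes. The median over the 10 genes was 0.28 on the log2 scale, against -0.0065 over all genes tested. That median fell to 0.006 when Cre replicate 1 was left out, and rose to 0.49 without Cre replicate 2. Leaving out Cre replicate 1 left 1 gene, Slc25a15, past the unadjusted threshold.

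Livers of one group differed from each other in these genes. Cre replicate 1 was the highest library for 8 of the 10 genes, and Cre replicate 3 was highest for the other 2, Nags and Slc25a15. Cre replicate 2 was the lowest library for 5 genes and GFP replicate 3 for 3. The 10 genes together took 0.611%, 0.741% and 0.438% of the summed FPKM in the GFP livers and 1.207%, 0.722% and 0.796% in the Cre livers. Cre replicate 2 was thus inside the GFP range by this measure, and GFP replicate 3 was the lowest of all.

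**Figure D3:**
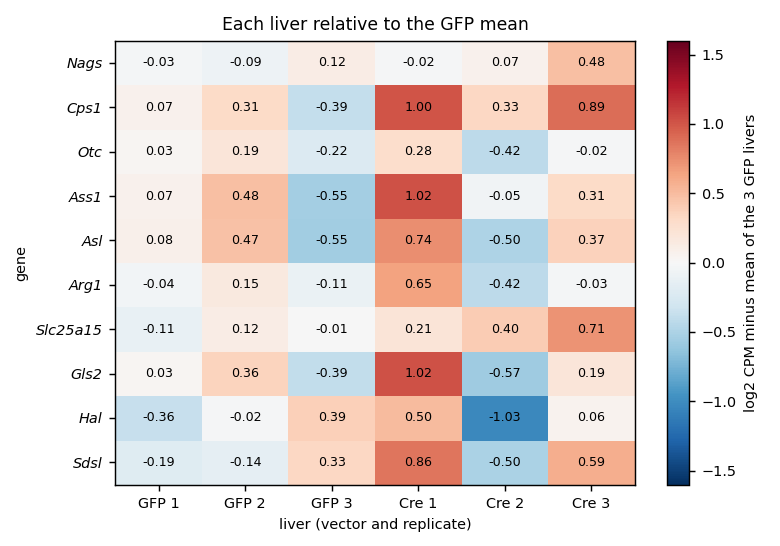
Log2 CPM of each gene (rows) in each liver (columns) minus the mean of the 3 GFP livers, with red for higher and blue for lower values. Cre replicate 1 is 0.5 or more above the GFP mean for 7 of the 10 genes, Cre replicate 2 is below it for 7, and Slc25a15 and Cps1 are above it in all 3 Cre livers.

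The genes moved together in part. Over the 6 libraries, log2 CPM of Gls2 correlated with that of Arg1 (Pearson r = 0.96), Asl (0.95), Otc (0.94) and Ass1 (0.92), and Ass1 with Asl (0.93). Nags and Slc25a15 correlated at 0.78. Slc25a15 also correlated with Cps1 (0.67), and its r with the other 7 genes lay between -0.17 and 0.25. Nags had r = 0.38 with Sdsl and 0.30 with Cps1, and between -0.28 and 0.08 with the rest. Hal and Sdsl, both enzymes of amino acid breakdown, correlated at 0.86. Cps1 was closest to Ass1 (0.86). These values describe 6 libraries that share tissue, depth and the contrast between vectors, and Cre replicates 1 and 2 lie at opposite ends of most of them.

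By transcript length, FPKM levels ranked Ass1 highest in both groups, at 1728 ± 613 in the GFP livers and 2583 ± 896 in the Cre livers (SD, n = 3 each). Sdsl ranked lowest, at 5.40 ± 0.965 and 7.87 ± 2.91 FPKM. Between them the GFP order was Arg1 (541 ± 60.8), Cps1 (404 ± 103), Asl (240 ± 85.0), Otc (145 ± 23.4), Gls2 (104 ± 28.1), Hal (80.4 ± 18.6), Slc25a15 (58.6 ± 4.84) and Nags (29.1 ± 1.47). From Arg1 to Slc25a15 each gene overlapped its neighbour in that order, while Ass1, Nags and Sdsl stood apart. In the Cre livers Cps1 (748 ± 120 FPKM) came ahead of Arg1 (657 ± 225 FPKM), with overlapping values, and Slc25a15 (90.2 ± 14.8 FPKM) ahead of Hal (85.2 ± 36.5 FPKM), also with overlap. The cofactor enzyme Nags was thus far below its target Cps1 in every liver.

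Partners that bring aspartate, glutamate, ammonia and bicarbonate to the cycle, 17 of 19 listed genes with enough counts, did not move as one. At the unadjusted threshold Got1 was higher and Glul and Car5a lower in the Cre livers, 1 and 2 of 17, against 12% and 8.41% of all genes. This split depended on scaling: with library totals 3 were higher and 0 lower, since Glul and Car5a no longer passed (edgeR adjusted p = 0.264 and 0.234). The calls over all genes moved the same way, from 1618 higher and 1129 lower to 2548 and 376. None had an edgeR adjusted p under 0.05, while DESeq2 called Got1 and Glul. The median log2 fold change was -0.10, and 0.059 with library totals, against -0.0065 and 0.164 over all genes. Arg2, the extrahepatic arginase, and Slc25a2, another ornithine carrier, had too few counts to be tested.

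Got1, the cytosolic aspartate aminotransferase, which can supply the aspartate that Ass1 uses, was at 130, 202 and 103 CPM in the GFP livers and 427, 216 and 410 CPM in the Cre livers. The groups did not overlap, and Cre replicate 2 again lay closest to GFP replicate 2, as for Cps1. Its log2 fold change was 1.28 (SE 0.33, edgeR adjusted p = 0.0891, DESeq2 adjusted p = 0.00294).

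Glul, the glutamine synthetase of pericentral hepatocytes, was at 1812, 1571 and 2027 CPM in the GFP livers and 665, 1354 and 1098 CPM in the Cre livers. The groups did not overlap, and Cre replicate 1, the liver with the highest Cps1, Ass1 and Gls2, had the lowest Glul. Its log2 fold change was -0.80 (SE 0.27, edgeR adjusted p = 0.158). Car5a, the mitochondrial carbonic anhydrase that supplies bicarbonate to Cps1, was at 107, 109 and 84.4 CPM in the GFP livers and 88.8, 45.3 and 54.4 CPM in the Cre livers (log2 fold change -0.67, edgeR adjusted p = 0.183). Cre replicate 1 overlapped the GFP livers for Car5a. The unadjusted call for Glul was lost without GFP replicate 3 (edgeR adjusted p = 0.281). That for Car5a was lost without GFP replicate 1, GFP replicate 2, Cre replicate 2 or Cre replicate 3 (edgeR adjusted p = 0.347 to 0.418). Without Cre replicate 1, Car5a had a log2 fold change of -1.01 (edgeR adjusted p = 0.0277). Of the most abundant partners, Glud1, which frees ammonia from glutamate, had a log2 fold change of -0.33 (edgeR adjusted p = 0.284), and Got2, the mitochondrial aspartate aminotransferase, of -0.23 (edgeR adjusted p = 0.410).

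**Figure D4:**
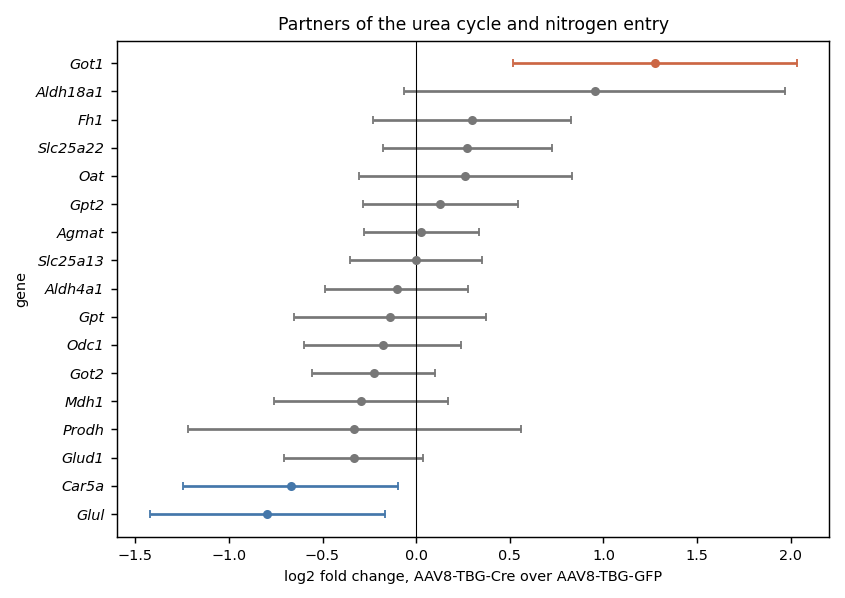
Log2 fold change, Cre over GFP (x axis), with its 95% interval for the 17 tested partner genes, sorted by estimate. Orange and blue mark the genes past the unadjusted threshold, higher (Got1) and lower (Glul, Car5a), and grey marks the other 14.

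Zonation genes outside the set mostly had negative log2 fold changes. Of 11 periportal genes, Cdh1 was higher, at a log2 fold change of 1.82 (edgeR adjusted p = 0.0149). Ctsc and G6pc were lower at the unadjusted threshold (-0.88 and -1.65, edgeR adjusted p = 0.0564 and 0.219). DESeq2 called Cdh1 and Ctsc (DESeq2 adjusted p = 3.24e-20 and 0.000183). G6pc did not pass in DESeq2, with upper quartile scaling or with library totals. It also did not pass without GFP replicate 1, GFP replicate 2, Cre replicate 2 or Cre replicate 3. In these fits its log2 fold change was -1.22 to -1.66. In the other fits it passed, at -1.48 with the form as a covariate and -2.09 with the replicate block. Without Cre replicate 1 it was -2.88 (edgeR adjusted p = 0.0229). The paper reported lower G6pc mRNA by qPCR and lower G6pc protein with AAV8-TBG-Cre, in livers taken earlier after injection. Cdh1 encodes E-cadherin, which bile duct cells also express, and its edgeR adjusted p was 0.0827 without GFP replicate 2 and 0.0559 without Cre replicate 2. The periportal median was -0.24, with 8 of 11 genes negative. It was -0.087 with library totals, -0.006 without Cre replicate 2, -0.408 without Cre replicate 1 and -0.423 without Cre replicate 3. Of 12 pericentral genes, none was higher and 3 were lower at the unadjusted threshold: Glul, the P450 enzyme Cyp1a2 (-0.77, edgeR adjusted p = 0.0611) and the glutamate transporter Slc1a2 (-0.52, edgeR adjusted p = 0.0975). DESeq2 called these 3 genes (DESeq2 adjusted p = 0.034, 8.22e-05 and 0.0112). With library totals and in the 3 limma fits on FPKM, 1 of the 12 was lower, Cyp1a2. Without Cre replicate 1, 2 of the 12 were higher and 3 lower. Their median was -0.13, and 0.057 with library totals, where the median of all genes was 0.164. It was -0.051 without Cre replicate 1, -0.315 without Cre replicate 2 and -0.085 without Cre replicate 3. The summed level of the pericentral list was between 13966 and 15326 CPM in the GFP livers and between 9323 and 13059 CPM in the Cre livers.

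Regulators known for these genes gave no edgeR adjusted call among 14 tested, while DESeq2 called Cebpb. Cebpb, a C/EBP factor of the acute and fasting response, was lower (log2 fold change -0.65, edgeR adjusted p = 0.0735), as was Sirt3, a mitochondrial deacetylase (-0.30, edgeR adjusted p = 0.212), and Creb1, the cAMP-responsive factor, was higher (0.31, edgeR adjusted p = 0.209), all at the unadjusted threshold. The glucagon receptor Gcgr was not among them (-0.28, edgeR adjusted p = 0.332), nor was Hnf4a (0.07, edgeR adjusted p = 0.871). The calls for Sirt3 and Creb1 were lost without GFP replicate 2, GFP replicate 3, Cre replicate 2 or Cre replicate 3. Their edgeR adjusted p was then 0.316 to 0.466 for Sirt3 and 0.317 to 0.458 for Creb1. Creb1 was also lost without GFP replicate 1 (edgeR adjusted p = 0.341) and in DESeq2 (adjusted p = 0.292). Sirt3 was also lost with upper quartile scaling, library totals and in the limma fits. Neither of these 2 calls held with the replicate block or the form as a covariate.

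Some markers of other liver cells also differed between the vectors. At the unadjusted threshold 12% of all genes tested were higher in the Cre livers and 8.41% lower. All 8 cholangiocyte markers were higher by that rule. Their sum was 128, 72.2 and 117 CPM in the GFP livers and 360, 574 and 306 CPM in the Cre livers. Of 8 macrophage and Kupffer cell markers, 6 passed, with a sum of 165 to 195 CPM in the GFP livers and 240 to 332 CPM in the Cre livers. Stellate and fibroblast markers summed to between 216 and 324 CPM and between 401 and 832 CPM, but did not move as one. Of 7, 3 passed, Pdgfrb and the collagen genes Col1a1 and Col3a1. Des and Dcn did not pass (log2 fold change 0.13 and 0.38), and Lrat and Reln were negative (-0.25 and -0.10). For all 3 lists the highest sum was in Cre replicate 2, which also had the lowest hepatocyte sum (78927 CPM) and was the lowest library for 5 of the 10 genes. Endothelial markers summed to between 128 and 199 CPM in the GFP livers and between 127 and 148 CPM in the Cre livers. All 7 had negative log2 fold changes, and 1 of them, Stab2, was lower at the unadjusted threshold (-0.32, edgeR adjusted p = 0.135). The 3 tested neutrophil markers were all higher at the unadjusted threshold, with sums of 4.44 to 5.13 CPM and 8.73 to 13.0 CPM. Only 1 T and NK cell marker and 1 B cell marker could be tested, each at or below 2 CPM. The 2 tested small intestine markers, Fabp2 and Vil1, went in opposite directions. The part of these cell markers in the levels of the urea cycle genes was not tested.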

How the data were processed

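Liver RNA (oligo dT selection or rRNA depletion, which of them is not stated) was sequenced on the DNBseq platform. For every liver, the authors deposited transcript-level expected counts with FPKM values, and gene-level FPKM in a joint table. An expected count estimates fragments per transcript, need not be whole (45.4% were) and is not normalized, whereas FPKM corrects for transcript length and library depth. The submitters' processing notes name HISAT2, Bowtie2, RSEM and build mm10, while STAR, HTSeq and DESeq2 are named in the methods of the paper, and versions are not given in the sources used here. Coordinates are those of RefSeq on GRCm38.p6, the same build as mm10.

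Transcripts were added up to genes by their NCBI gene ID, and the sums were rounded. Libraries of a group were not duplicates (smallest chi-square per gene, 26.5). The vector named in each label set the groups, with 3 livers each, which the paper's legend describes as separate mice. Differences between vectors were tested by quasi-likelihood in edgeR 4.0.16 (R 4.3.3) after filterByExpr and TMM scaling, with no covariate. It was fitted over all genes, with Benjamini-Hochberg adjustment over the 13431 tested. Standard errors were derived from the quasi-F statistic. The unadjusted threshold (p under 0.05, 1.2-fold) is the study's. The step was tested on simulated data. Precision is set by 3 livers per group, except near 1 CPM, where counting error is large.

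The members, the gene lists and the tests were chosen with earlier results of these data known. Text names were all 10 members, Mettl14, list genes past a threshold or among the 3 most abundant of a list, and the 5 other genes of at least 10 CPM whose log2 CPM correlated best with the members' mean z-score. One listed gene is not reported here. Sds was named beyond that rule, after its values were seen, as a relative of Sdsl. Cell type marker lists covered hepatocytes, cholangiocytes, macrophages, stellate cells, endothelial cells, T and NK cells, B cells, neutrophils, kidney tubule and small intestine.

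Other fits tried were those with RLE, upper quartile or library-total scaling, DESeq2 1.42.0, the low-count filter removed or raised to 10 counts in each library, a replicate block, a covariate for the library name's form, limma 3.58.1 on log2(FPKM + 1) or log2(FPKM + 0.1) with an FPKM of at least 0.5 in 3 libraries, log2(FPKM + 1) without that filter, and leaving out each liver.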

Additional observations from a re-analysis of the deposited data

How the results depend on the processing

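Of the estimates for the 10 genes under 17 alternatives each, 151 kept their direction and their side of an adjusted p of 0.05, 18 changed sign and 1 passed the threshold, Cps1 in DESeq2 (adjusted p = 0.041). Cps1 stayed between 0.56 and 0.92 on the log2 scale with an unadjusted p under 0.05 in 12 of the 17, and Slc25a15 between 0.30 and 0.62 with 14 of the 17. Adjusted p ranged from 0.041 to 0.377 and from 0.0652 to 0.409. Sign changes occurred in Otc, Hal, Asl, Arg1 and Gls2. Otc became 0.023 with upper quartile scaling, 0.12 with library totals and in the 3 limma fits, 0.093 with the form as a covariate, 0.064 without GFP replicate 2 and 0.13 without Cre replicate 2. Hal became 0.083 with library totals, 0.012, 0.011 and 0.012 in the 3 limma fits, 0.14 without GFP replicate 3 and 0.26 without Cre replicate 2. Asl became -0.012 without GFP replicate 3 and -0.065 without Cre replicate 1. Without Cre replicate 1, Arg1 became -0.22 and Gls2 -0.18. With 1 liver left out, Otc ranged from -0.22 to 0.13, Hal from -0.42 to 0.26, Asl from -0.065 to 0.50, Arg1 from -0.22 to 0.34 and Gls2 from -0.18 to 0.63.

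The number of members past the unadjusted threshold was 2, and 0 to 3 when 1 liver was left out: 0 without GFP replicate 1, GFP replicate 3 or Cre replicate 3, 1 without Cre replicate 1, and 3 without Cre replicate 2. Members with no overlap between groups numbered 2. They were 1 with no filter on low counts, where Cps1 overlapped, and 3 with library totals, in the 3 limma fits and without GFP replicate 3 or Cre replicate 2. The share of all genes without overlap (14% with higher Cre values) was taken only with TMM and all livers. All genes shifted upward with library totals (median 0.164) and in limma on log2(FPKM + 1) (median 0.112). Groups of 2 and 3 livers also separate by chance more often than 3 against 3. The rise from 2 to 3 members is therefore not read as a property of these genes. Over all genes, 125 had an adjusted p under 0.05. That number was 1157 in DESeq2, 66 with upper quartile scaling, 10 with library totals, 372 without a filter, 76 with at least 10 counts, 214 with the form as a covariate, 22, 27 and 9 in the 3 limma fits, and 0 (without GFP replicate 2 or Cre replicate 2) to 928 (without Cre replicate 1) when 1 liver was left out. The cause was not tested.

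Library totals moved the median of all genes to 0.164 and the split of unadjusted calls from 1618 higher and 1129 lower to 2548 and 376. That split was 1922 and 737 with upper quartile scaling and 1880 and 365 in limma on log2(FPKM + 1), whose median of all genes was 0.112. Set against the median of all genes, the members' median stayed 0.232 to 0.41 higher in every fit with 6 livers, and was 0.016 higher without Cre replicate 1.

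Replicate numbers showed no clear pairing of the samples: same-numbered livers deviated together by r = 0.045, -0.28 and 0.229. Deviations were taken from the mean of each small group, so these values cannot settle whether samples were paired. With the replicate block, 7 genes had an adjusted p under 0.05 and 1 member, Slc25a15, passed the unadjusted threshold. Cps1 no longer did, and the members' median was 0.22. Not every sample correlated best with its own number.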

Other observations

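Amino acid breakdown outside the set showed few calls at the unadjusted threshold and none at an edgeR adjusted p under 0.05, while DESeq2 called 3 of the serine and sulfur list and 1 of the aromatic list. Of 16 tested genes for serine, threonine, glycine and sulfur amino acids, Cth, the cystathionine lyase that makes cysteine, was higher, at 207, 216 and 224 CPM in the GFP livers and 260, 395 and 636 CPM in the Cre livers. The groups did not overlap, and its log2 fold change was 1.00 (SE 0.29, edgeR adjusted p = 0.122, DESeq2 adjusted p = 0.016). Shmt2, the mitochondrial serine hydroxymethyltransferase, was lower (-0.61, edgeR adjusted p = 0.128). Without Cre replicate 1, Cth was at 1.26 and Shmt2 at -0.82 (edgeR adjusted p = 0.0277 and 0.0314). Sds, the serine dehydratase related to Sdsl, was at 123, 151 and 96.7 CPM in the GFP livers and 434, 55.3 and 109 CPM in the Cre livers (log2 fold change 0.69, SE 0.66, edgeR adjusted p = 0.598). Cre replicate 1 was the highest and Cre replicate 2 the lowest library for Sds, as for Arg1, Gls2 and Hal. The list's median was -0.15, 0.021 with library totals and 0.036 without GFP replicate 3.

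Of 11 genes for aromatic amino acids and lysine, Hgd, homogentisate dioxygenase of tyrosine breakdown, was higher (0.47, edgeR adjusted p = 0.207) and Kmo, the kynurenine hydroxylase of tryptophan breakdown, was lower (-0.59, edgeR adjusted p = 0.120). The Hgd call was lost without GFP replicate 1, GFP replicate 2, GFP replicate 3 or Cre replicate 3. The median was 0.12, 0.268 with library totals, 0.269 without Cre replicate 2, and -0.145, -0.045 and -0.007 without Cre replicate 1, GFP replicate 3 and Cre replicate 3. None of 4 histidine genes and none of 12 branched chain genes passed, with medians of -0.33 and -0.15. With library totals these were -0.177 and 0.012, without Cre replicate 1 -0.586 and -0.316, and without Cre replicate 2 -0.114 and -0.072. All 12 branched chain genes lacked an adjusted call in every fit, but 6 of them were lower at the unadjusted threshold without Cre replicate 1.

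The 5 genes outside the set whose log2 CPM over the 6 libraries followed the members' mean z-score most closely, of 7875 compared, were Aass (Pearson r = 0.98), Gpt2 (0.98), Zcchc7 (0.98), Tdo2 (0.97) and Cyth1 (0.97). Aass opens lysine breakdown, Gpt2 is an alanine aminotransferase and Tdo2 opens tryptophan breakdown. Aass was at 278, 291 and 269 CPM in the GFP livers and 370, 261 and 338 CPM in the Cre livers. In Aass, as in Otc, Arg1, Gls2, Hal and Sdsl, Cre replicate 1 was the highest library and Cre replicate 2 the lowest. None of the 5 passed the unadjusted threshold between vectors, with log2 fold changes of 0.10 to 0.21.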
